A study of Mus musculus with 3 samples.

Results

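The cornified envelope genes Krtdap, Sbsn, Spink5, Asprv1, Ly6d, Ivl, Lor, Cst6 and Grhl3 were followed by symbol as 9 of the 32293 features of the count tables. They were measured in epithelial barcodes, that is, called cell barcodes with at least 1 UMI of Epcam and 0 UMIs of Pecam1 and Pdgfra (a UMI is a molecular tag, counted once per captured transcript). This definition kept 594 of 8616 called barcodes in the Foxn1Lin female library, 525 of 3583 in the Foxn1Lin male library and 1078 of 5478 in the wild-type male library. The data were single-cell RNA-sequencing libraries of nonhematopoietic (CD45-) thymic stroma from untreated C57BL/6 mice, all aged 20 months. In the Foxn1 lineage trace (Foxn1Lin), Cre driven by Foxn1, a master transcription factor of thymic epithelial cells (TECs), switches on tdTomato in cells with a history of Foxn1 expression, whereas the wild-type mice carried no reporter. Each library was the only one of its group (n = 1) and was made from pooled thymi. The preparation text in the labels names female mice for all 3 libraries, although 2 are labeled male. By its title the wild-type library is CD45-, but its cell type label reads CD45-PECAM1+, and 944 of its 5478 called barcodes were endothelial (Pecam1 without Epcam or Pdgfra). Sex, genotype and preparation therefore cannot be told apart, and libraries are set side by side without a test between them.

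The cornified envelope is the tough protein shell that keratinocytes build under their membrane as they leave the basal layer and die. Transglutaminases cross-link precursors such as involucrin and loricrin, desmosomal proteins anchor the shell, lipids seal it, and proteases with their inhibitors time its shedding. In the thymus, keratinized bodies of the medulla known as Hassall's corpuscles and keratinocyte-like mimetic TECs carry parts of this program, and Aire drives the expression of tissue-restricted genes, skin genes among them, in medullary TECs. Plet1 is known as a marker of thymic epithelial progenitors.

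Among the members, Ivl encodes involucrin, an early precursor of the envelope, and Lor encodes loricrin, its main component. Krtdap and Sbsn encode small secreted proteins of suprabasal keratinocytes, and Ly6d encodes a surface protein of keratinocytes and lymphocyte progenitors. Asprv1 encodes a skin aspartic protease that processes profilaggrin. Spink5 encodes LEKTI, an inhibitor of the kallikrein proteases of desquamation, and Cst6 encodes cystatin M/E, an inhibitor of cathepsins and legumain. Grhl3 encodes a grainyhead-like transcription factor of barrier formation.

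Promoter sequences of 6 of the 9 members (Krtdap, Sbsn, Asprv1, Ivl, Lor and Grhl3) were found in the RefSeq promoter table for GRCm38.p6. Shown here are the 150 bases before the transcription start of Krtdap (chr7:30787755-30787904, plus strand), Sbsn (chr7:30751321-30751470, plus strand), Ivl (chr3:92573736-92573885, minus strand) and Lor (chr3:92083143-92083292, minus strand), because these 4 share a motif, while Lor was richest in other barcodes than the other three, as described further on. Capitals mark TATAAA, the TATA box, and TGANTCA, the core of an AP-1 site.
Krtdap: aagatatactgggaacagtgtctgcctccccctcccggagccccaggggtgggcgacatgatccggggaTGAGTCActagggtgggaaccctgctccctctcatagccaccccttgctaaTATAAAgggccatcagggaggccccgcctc
Sbsn: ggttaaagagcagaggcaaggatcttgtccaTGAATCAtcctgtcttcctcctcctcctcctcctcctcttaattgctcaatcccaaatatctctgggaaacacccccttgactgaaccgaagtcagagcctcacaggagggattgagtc
Ivl: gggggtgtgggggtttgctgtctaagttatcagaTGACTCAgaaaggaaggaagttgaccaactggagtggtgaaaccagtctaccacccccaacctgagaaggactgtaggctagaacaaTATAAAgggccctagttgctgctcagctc
Lor: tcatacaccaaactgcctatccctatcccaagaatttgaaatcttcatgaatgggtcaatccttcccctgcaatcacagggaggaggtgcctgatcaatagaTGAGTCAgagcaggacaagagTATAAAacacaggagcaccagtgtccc

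TATAAA began at position -30 of Krtdap, -29 of Ivl and -27 of Lor, counted back from the start, and TGANTCA at -81 of Krtdap, -119 of Sbsn, -116 of Ivl and -48 of Lor. Both strands of the 250 bases before the start were searched, the motifs did not overlap, and they were chosen after the sequences had been seen. TATAAA was present in 3 of the 6 members and in 12.4% of 32851 promoters in the table, and TGANTCA in 4 of 6 and in 6.75%. The grainyhead motif AACCGGTT, present in 0.116% of promoters, was in none of the 6 windows. In the GENCODE annotation (release 21), Krtdap and Sbsn lie on chromosome 7 with 31761 bases between them, and Dmkn, another secreted protein of the suprabasal layer, lies in the gap, 6832 bases from Krtdap and 7621 bases from Sbsn. Ivl and Lor lie 487759 bases apart on chromosome 3.

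The libraries held 53366016, 33386621 and 61258534 UMIs in called barcodes (values throughout follow the order Foxn1Lin female, Foxn1Lin male, wild type), with a sequencing saturation of 52.1%, 81% and 72.8%. Median UMIs per epithelial barcode were 8568.5, 10284 and 14159, against 3562, 6947 and 6587.5 in endothelial barcodes and 6881.5, 9188 and 7972 in fibroblast barcodes (Pdgfra without Epcam or Pecam1). Krt8, a keratin of simple epithelium and TECs, was found in 83.0%, 86.9% and 90.7% of epithelial barcodes, and in at most 19.5% of endothelial or fibroblast barcodes. Ptprc, which encodes CD45, was found in 63, 10 and 31 epithelial barcodes. Laptm5, the most frequent hematopoietic marker gene examined, was in 30.5%, 20.2% and 31.1% of them, against 6.51%, 3.86% and 4.98% of endothelial barcodes. Tyrobp, another such gene, was in 1.68%, 0.952% and 1.76% of epithelial barcodes. The fibroblast gene Dcn was in 64.5%, 44.8% and 51.8%, against 50.98%, 20.95% and 23.2% of endothelial barcodes. The part of RNA from other cell types in the epithelial class was not tested. Pairs of libraries shared 3 to 14 called barcode sequences and 0 epithelial ones.

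At least 1 UMI of any of the 9 genes was present in 329 epithelial barcodes of Foxn1Lin female (55.4%, 95% exact binomial interval 51.3 to 59.4), in 237 of Foxn1Lin male (45.1%, 40.8 to 49.5) and in 573 of the wild type (53.2%, 50.1 to 56.2). The share was tied to depth: barcodes with 0 members had a median of 4431, 7518.5 and 10055 UMIs, and barcodes with exactly 1 had 9862, 12562.5 and 15959.5. After each barcode was randomly thinned to 2000 UMIs, which left out 74, 47 and 74 shallower barcodes, the shares were 27.7%, 21.5% and 22.2%. At least 5 different members were found together in 14, 2 and 21 barcodes, or 2.36%, 0.381% and 1.95%. No epithelial barcode held all 9 members, and the most in 1 barcode was 7, 7 and 8. Intervals on shares and counts cover counting error only.

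The envelope precursors were the rarest members. Ivl was detected in 4, 3 and 8 epithelial barcodes, 0.673% (0.184 to 1.72), 0.571% (0.118 to 1.66) and 0.742% (0.321 to 1.46). Lor was detected in 4, 5 and 14, or 0.673%, 0.952% and 1.30%. Endothelial barcodes held Lor in 0.451%, 1.10% and 0.212%, so the share of positive barcodes in Foxn1Lin male was at the background of a cell type that should lack the gene, at a lower median depth. All 4 Lor UMIs of Foxn1Lin female were single UMIs in 4 barcodes, whereas Foxn1Lin male held 114 and the wild type 263, with a highest count of 75 and 158 in 1 barcode. Ivl summed to 43, 25 and 129 UMIs, of which 36, 23 and 100 came from 1 barcode in each library.

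The secreted and surface proteins were more widespread. Krtdap was detected in 43 barcodes of Foxn1Lin female (7.24%, 5.29 to 9.63), 40 of Foxn1Lin male (7.62%, 5.50 to 10.2) and 46 of the wild type (4.27%, 3.14 to 5.65), against at most 0.903% of endothelial and 2.23% of fibroblast barcodes. At 2000 UMIs per barcode its shares were 3.65%, 3.97% and 1.49%. The summed level of Krtdap in epithelium was 147, 23.3 and 37.5 counts per 1e6 UMIs (CPM), so that the level of Foxn1Lin male was the lowest although its share was not. Ly6d was in 133, 74 and 206 barcodes (22.4%, 14.1% and 19.1%), with 181, 168 and 151 CPM. Endothelial barcodes held Ly6d in 4.29%, 1.43% and 3.07%. Ptprc was found in 18.8%, 4.05% and 6.31% of Ly6d-positive epithelial barcodes, against 8.24%, 1.55% and 2.06% of Ly6d-negative ones, and the part of hematopoietic RNA in the Ly6d counts was not tested. The third richest Ly6d barcode of the wild type (147 UMIs) held 12106 UMIs of the immunoglobulin gene Igkc and 0 of Ptprc.

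Sbsn was also found widely outside epithelium. It was detected in 114, 74 and 179 epithelial barcodes (19.2%, 14.1% and 16.6%), and in 11.8%, 4.38% and 5.65% of fibroblast barcodes. At 2000 UMIs per barcode, the epithelial share in Foxn1Lin female was 5.19% (3.45 to 7.46) and the fibroblast share 4.99%, and these could not be told apart at this depth. In the other libraries the thinned shares were 4.81% against 0.756% and 3.98% against 1.56%. Of all Sbsn UMIs in called barcodes, 70.9% lay in barcodes without Epcam in Foxn1Lin female, against 25.2% and 24.8% in the others.

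Of the protease and inhibitor genes, Cst6 was detected most often, in 155, 95 and 255 barcodes (26.1%, 18.1% and 23.7%) with 221, 104 and 247 CPM. In endothelial barcodes Cst6 was found in 4.51%, 3.42% and 4.66%. Spink5 was uneven between libraries, with 49, 22 and 130 positive barcodes (8.25%, 4.19% and 12.1%) and 83.3, 41.2 and 208 CPM. Its share in endothelial and fibroblast barcodes was 0 in Foxn1Lin male and at most 0.664% in the other libraries. Asprv1 was at nearly the same share in each library, 9.93%, 9.71% and 9.37% (59, 51 and 101 barcodes), with 58.0, 34.8 and 49.6 CPM and at most 0.790% of endothelial barcodes.

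Grhl3, the only transcription factor of the set, was found in 36, 35 and 129 barcodes (6.06%, 6.67% and 12.0%) with just 49, 52 and 191 UMIs. Of its positive barcodes, 75%, 71.4% and 67.4% held a single UMI, and its highest count in 1 barcode was 4, 4 and 5. At 2000 UMIs per barcode its shares were 1.35%, 1.88% and 1.69%, so that the higher share of the wild type was not seen at equal depth. Its level was 7.21, 7.03 and 9.46 CPM.

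**Figure D1:**
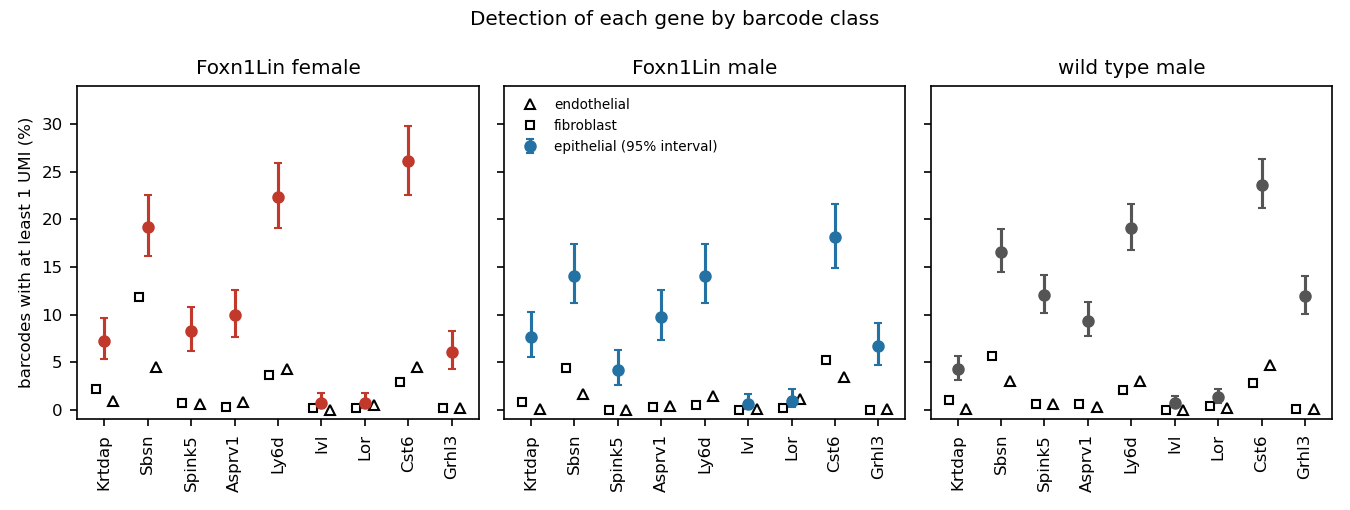
Share of barcodes with at least 1 UMI of each gene (y axis, %), with 1 panel per library; filled circles are epithelial barcodes with 95% exact binomial intervals, open triangles endothelial and open squares fibroblast barcodes. Cst6 reaches 26.1%, 18.1% and 23.7% of epithelial barcodes, Ivl stays under 1% in each library, and Sbsn has the highest fibroblast share, 11.8% in Foxn1Lin female.

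The UMIs of most members were held by very few barcodes. The richest 1% of epithelial barcodes (6, 6 and 11 barcodes, ranked for each gene) held 87.0%, 55.8% and 89.2% of the Krtdap UMIs and 70.0%, 88.5% and 72.3% of the Spink5 UMIs. For Cst6 they held 69.8%, 63.9% and 81.6%, for Asprv1 69.0%, 47.5% and 77.3%, and for Sbsn 56.9%, 47.9% and 58.1%. For Ly6d they held 35.8%, 58.0% and 49.3%, less than for these genes in Foxn1Lin female and the wild type but not in Foxn1Lin male. All Ivl UMIs and 98.9% or more of the Lor UMIs were in the richest 1%, which had to be so where fewer barcodes were positive than were counted.

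For comparison, the richest 1% of barcodes for Aire held 17.2%, 28.3% and 17.1% of its UMIs, for Plet1 32.1%, 26.1% and 37.2%, and for Epcam 10.1%, 8.58% and 9.53%. Grhl3 was at 32.7%, 36.5% and 19.4%, within or near the range of these genes. The median of UMIs per positive barcode was 1 to 3 for each member except Ivl (3, 1 and 3.5) and Lor (1, 8 and 2), so a few barcodes rich in a member stood beside many with 1 or 2 UMIs of it. For Krtdap, 53.5%, 40% and 43.5% of positive barcodes held a single UMI. Barcodes not called as cells held 26.5%, 12.9% and 9.46% of all UMIs, with Krtdap at 33.3, 11.7 and 10.6 CPM and Ly6d at 106, 59.3 and 95.8 CPM there. The part of such free RNA in the barcodes with a single UMI was not tested.

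**Figure D2:**
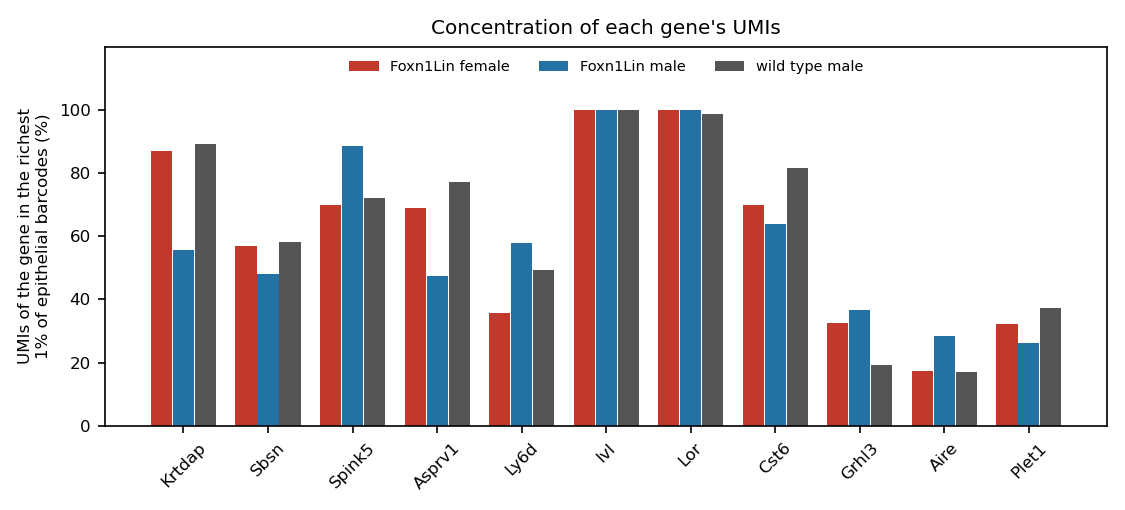
Share of each gene's epithelial UMIs (y axis, %) in the 1% of epithelial barcodes richest in that gene, with a bar per library (red Foxn1Lin female, blue Foxn1Lin male, grey wild type). Krtdap (87.0%, 55.8% and 89.2%) and Spink5 (70.0%, 88.5% and 72.3%) stand far above Aire (17.2%, 28.3% and 17.1%), and Ivl and Lor are at or near 100%.

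In Foxn1Lin female and in the wild type, 1 barcode was the richest of its library for several members at once. The Foxn1Lin female barcode had 17612 UMIs, with 357 of Krtdap, 141 of Sbsn, 136 of Asprv1, 36 of Ivl, 57 of Ly6d, 29 of Spink5 and 849 of Cst6, the last being 56.5% of all epithelial Cst6 UMIs of that library. The members made up 9.11% of its UMIs. It held 0 UMIs of Lor, Grhl3, Aire and Ptprc, 2 of Plet1 and 15 of the tdTomato reporter. Of 68 further genes of cornification, listed by role from keratins and desmosomes to lipids and proteases, 40 were detected in it.

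The wild-type counterpart had 29567 UMIs, with 254 of Krtdap, 188 of Sbsn, 417 of Asprv1, 524 of Spink5, 100 of Ivl, 23 of Ly6d and, for Cst6, 58.5% of all epithelial Cst6 UMIs. Members made up 14.9% of its UMIs, and it held 2 UMIs of Lor, 0 of Aire and 1 of Plet1. Klk7, a kallikrein of desquamation that LEKTI inhibits, was at 381 UMIs there, Flg (profilaggrin) at 155 and Cnfn (cornifelin) at 49, and 44 of the 68 genes were detected. Its doublet score was not among the highest of the library.

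In Foxn1Lin male the barcode richest in Krtdap was not the richest in any other member. The Krtdap maximum was 39 UMIs, in a barcode with 68695 UMIs. The barcode richest in Spink5 (166), Ly6d (209) and Ivl (23) had 94447 UMIs, 10533 detected genes, 16 UMIs of Aire and 3 of Ptprc, 0 of Krtdap, and a doublet score among the highest of the library. The part of barcodes that hold more than 1 cell in these counts was not tested.

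Loricrin transcripts lay elsewhere. The 2 richest Lor barcodes of Foxn1Lin male held 75 and 29 UMIs of Lor with 16 and 20 of Aire, and the 3 richest of the wild type held 158, 58 and 28 UMIs of Lor with 13, 4 and 2 of Aire. The third richest Lor barcode of Foxn1Lin male held 8 UMIs of Lor among 535 in all, and 0 of Aire. Aire was also in 38 of the 62 barcodes with at least 10 UMIs of Cst6, so it was not particular to Lor. The 5 barcodes with at least 10 UMIs of Lor all held 0 UMIs of Krtdap, Sbsn and Ivl. Of these 5, Cst6 was in 3, Spink5 and Asprv1 in 2 each, and Ly6d, Grhl3 and Plet1 in 1 each. Conversely, the 4 barcodes with at least 10 UMIs of Ivl all held Sbsn, Spink5, Asprv1, Ly6d, Cst6 and Plet1, 3 of them Krtdap and 1 of them Aire. One of the 5 Lor barcodes and 1 of the 4 Ivl barcodes held Ptprc. The 2 precursors of the same structure, both with TATAAA and TGANTCA in their promoters, were thus high in different barcodes, on a count of 9 barcodes in all.

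**Figure D3:**
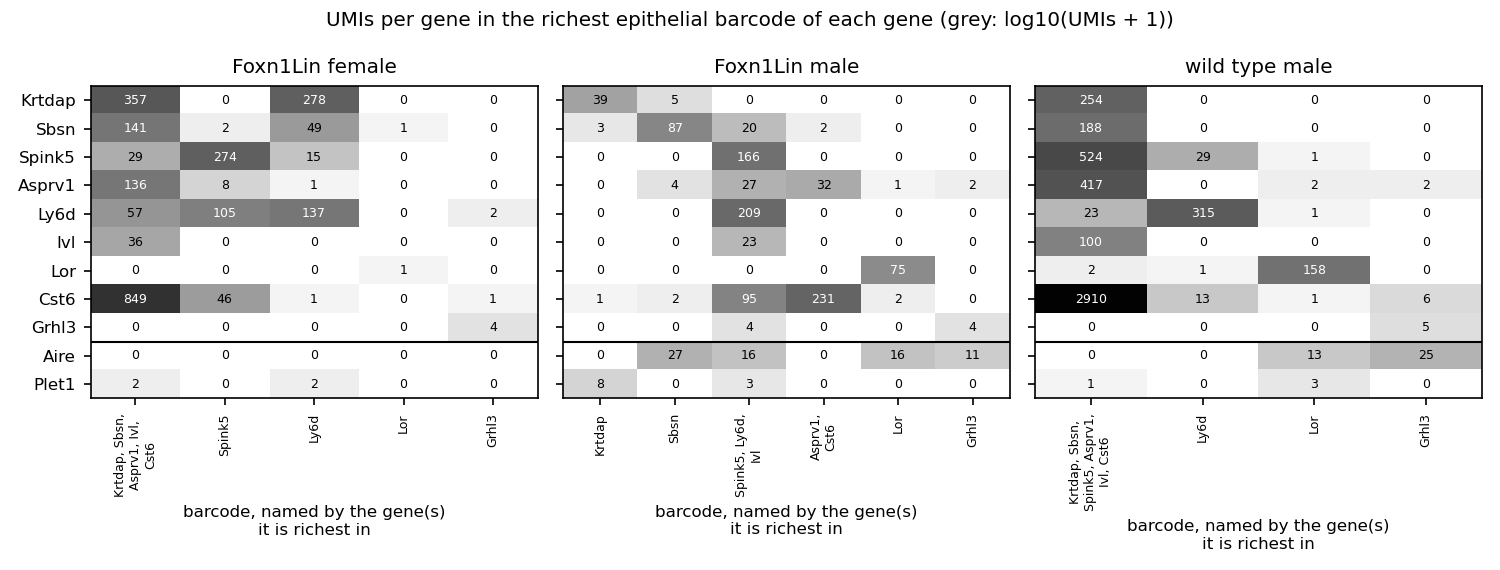
UMIs of each gene (rows, printed in each cell and shaded by log10 of UMIs + 1) in the epithelial barcode richest in each member (columns), with 1 panel per library; ties were broken by barcode order, which concerned Lor in Foxn1Lin female (1 UMI in each of 4 barcodes) and Grhl3 in Foxn1Lin male (4 UMIs). One column in Foxn1Lin female and in the wild type carries Krtdap, Sbsn, Asprv1, Ivl and Cst6 with 0 Aire, while the Lor columns of Foxn1Lin male (75 UMIs) and the wild type (158 UMIs) carry Aire and no Krtdap.

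To ask whether the members belong to epithelium, UMIs were summed within each library over epithelial barcodes and over barcodes without Epcam, and compared with edgeR with the library as a block. All 9 members were higher in epithelium at an adjusted p under 0.05 (Benjamini-Hochberg over 18373 genes), where 27.6% of all genes tested were called higher and 27.6% lower (55.2% in all). Ivl and Grhl3 passed the filter on low counts only through the epithelial sums where they were high, so their calls add no support. Spink5 and Lor would not have passed it by the sums without Epcam alone. The median log2 fold change was 4.45 over the members and 0.01 over all genes tested, and 2.41 against 0.04 with each gene capped at 5 UMIs per barcode. Without TMM scaling, all 9 were still called, while the split of all genes moved from 5073 higher and 5074 lower to 7046 and 3444, with the median gene at a log2 fold change of 0.31 in place of 0.01.

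Ivl, Spink5 and Asprv1 had the largest fold changes of the 9 between these classes. Ivl had just 5, 1 and 1 UMIs in barcodes without Epcam. Of its 43, 25 and 129 epithelial UMIs, 36, 23 and 100 lay in 1 barcode per library. Spink5 was at 83.3, 41.2 and 208 CPM in epithelium against 1.44, 0.352 and 3.38 CPM without Epcam (log2 fold change 5.77, SE 0.22, edgeR adjusted p = 0.000674). Asprv1 was at 58.0, 34.8 and 49.6 against 1.49, 0.659 and 1.11 CPM (5.16, SE 0.14, edgeR adjusted p = 0.000674). Ivl was higher by 5.92 (SE 0.45), Grhl3 by 4.66 (SE 0.47), Cst6 by 4.45 (SE 0.34), Krtdap by 3.86 (SE 0.43) and Ly6d by 3.85 (SE 0.40) on the log2 scale. The groups of 3 values did not overlap for these genes, but the share of all genes without overlap was not counted.

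Sbsn and Lor had the weakest contrast. Sbsn was at 78.6, 46.0 and 38.9 CPM in epithelium and 42.8, 6.11 and 11.2 CPM without Epcam (log2 fold change 1.53, SE 0.41, edgeR adjusted p = 0.0328), so the classes overlapped across libraries, and the ratio within each library was 1.84, 7.52 and 3.48. Lor in Foxn1Lin female did not differ beyond counting error (ratio 1.15, 95% interval 0.287 to 3.41), and its fit over all libraries gave 3.52 (SE 1.05, edgeR adjusted p = 0.0443). With each gene capped at 5 UMIs per barcode, and likewise without the Foxn1Lin male library, 7 of 9 members were called, Sbsn and Lor being lost. Without the wild-type library 7 of 8 tested members were called.

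The wider program of cornification followed the same division. Of the 68 listed genes, 58 were tested and 53 were higher in epithelium, 2 lower, with a median log2 fold change of 4.53 against 0.01 over all genes. How many of them passed the filter on low counts only through the epithelial sums was not counted. All tested envelope precursors (8 of 8, among them Flg, Cnfn and Sprr1a), transglutaminases (3 of 3), desmosomal and scaffold genes (6 of 6) and secreted or calcium-binding genes (8 of 8) were higher, as were 8 of 9 keratins of suprabasal layers, 8 of 9 proteases and inhibitors, 6 of 7 barrier lipid genes and 6 of 8 transcription factors. The 2 lower genes were the factors Klf4 (log2 fold change -1.77, SE 0.11) and Prdm1 (-1.61, SE 0.33), both of which are also used by endothelial, mesenchymal or immune cells. Prdm1 was not called without the Foxn1Lin male or without the wild-type library.

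**Figure D4:**
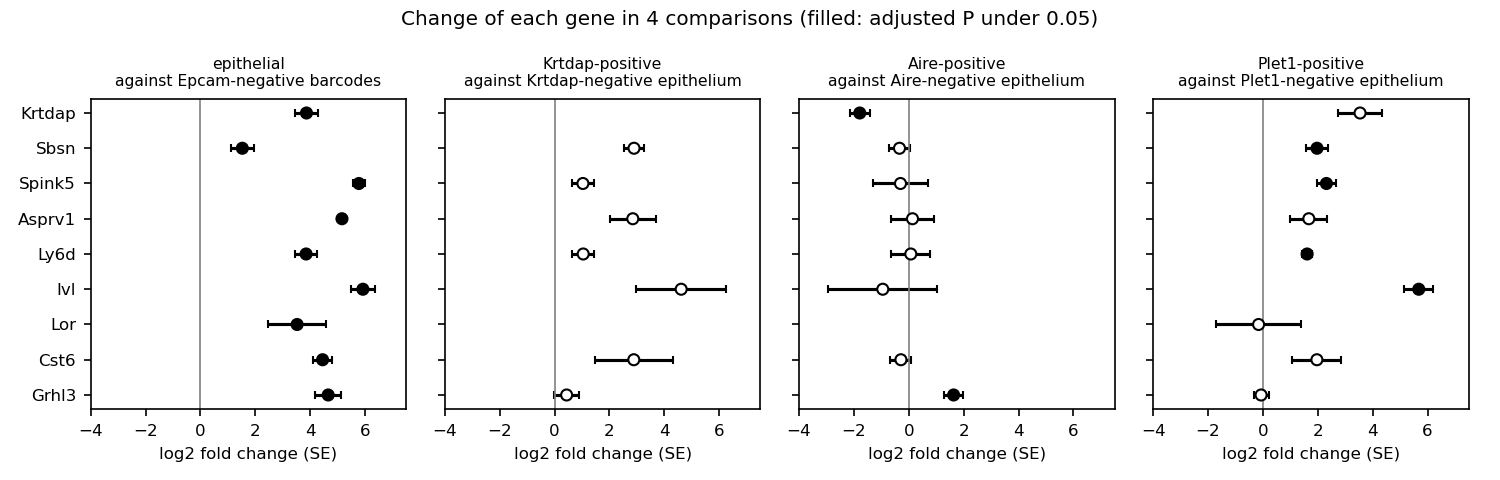
Log2 fold change (x axis) with its standard error for each member in 4 edgeR comparisons of UMI sums within libraries (panels); filled circles have an adjusted p under 0.05, and genes that split the barcodes or were not tested have no point. All 9 are filled for epithelium, 0 for the Krtdap split, Krtdap (lower) and Grhl3 (higher) for the Aire split, and Sbsn, Spink5, Ly6d and Ivl for the Plet1 split.

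To see whether the members share barcodes, epithelial barcodes with at least 1 UMI of Krtdap were compared with the rest. They were also deeper, with median UMIs of 15463, 13905 and 18520.5 against 8285, 9817 and 13983. Sbsn, the neighbor of Krtdap, was found in 48.8%, 27.5% and 32.6% of Krtdap-positive barcodes and in 16.9%, 13.0% and 15.9% of the others. At 2000 UMIs per barcode these shares were 26.3%, 10.5% and 26.7% (5 of 19, 2 of 19 and 4 of 15 barcodes) against 4.39%, 4.58% and 3.64%, which in Foxn1Lin male rests on 2 barcodes and cannot be told from counting error. Ly6d was in 60.5%, 22.5% and 37.0% of Krtdap-positive barcodes against 19.4%, 13.4% and 18.3%. After thinning, Ly6d was in 9 of 19, 1 of 19 and 5 of 15 Krtdap-positive barcodes against 9.38%, 5.23% and 8.59% of the others, so in Foxn1Lin male no difference was seen at equal depth. The other members shared Krtdap-positive barcodes less evenly. Cst6 was in 27.9%, 25% and 30.4% of them against 25.95%, 17.5% and 23.4% of the others, and after thinning in 1 of 19, 0 of 19 and 4 of 15 against 9.18%, 5.45% and 6.37%. Spink5 was in 18.6%, 2.5% and 19.6% against 7.44%, 4.33% and 11.7%, and Asprv1 after thinning in 4 of 19, 0 of 19 and 3 of 15 against 2.99%, 3.92% and 2.22%.

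Some other pairs also shared barcodes, and others did not in every library. Among Spink5-positive barcodes, 51.0%, 45.5% and 43.8% held Ly6d, against 19.8%, 12.7% and 15.7% of the others, and after thinning 11 of 20, 3 of 7 and 27 of 57 did, against 9%, 4.67% and 6.65%. Among Asprv1-positive barcodes, 50.8%, 47.1% and 60.4% held Cst6, against 23.4%, 15.0% and 19.9%. After thinning, the corresponding shares were 26.3%, 38.9% and 32% against 8.38%, 3.91% and 6.03%. Ivl was accompanied by Spink5 in 4 of 4, 2 of 3 and 6 of 8 barcodes. Lor was accompanied by Krtdap in 0 of 4, 1 of 5 and 1 of 14. Sbsn was in 40.8%, 13.6% and 37.7% of Spink5-positive barcodes against 17.2%, 14.1% and 13.7% of the others, and after thinning in 7 of 20, 0 of 7 and 12 of 57 against 4%, 4.88% and 2.96%. It was in 30.5%, 23.5% and 16.8% of Asprv1-positive barcodes against 17.9%, 13.1% and 16.6%, and after thinning in 6 of 19, 2 of 18 and 6 of 25 against 4.19%, 4.57% and 3.47%, so at equal depth the share was higher in the wild type too.

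In the test over summed UMIs, 0 of the 7 members tested were called between Krtdap-positive and Krtdap-negative epithelium by edgeR (Benjamini-Hochberg over 14022 genes), where 0.0357% of all genes were called (0.0143% higher and 0.0214% lower). At an unadjusted p under 0.05 there were 5 of 7 members and 955 genes, and DESeq2 called 1 member, Sbsn, and 126 genes. Sbsn was at 442, 119 and 222 CPM in Krtdap-positive and 33.7, 33.9 and 28.5 CPM in Krtdap-negative barcodes, and these values did not overlap (log2 fold change 2.89, SE 0.38, edgeR adjusted p = 0.151). Over the alternatives Sbsn was past the threshold in 6 of 12, among them the cap of 5 UMIs per barcode and the split after thinning. Without the Foxn1Lin male library 4 members were called (Asprv1, Cst6, Ivl and Sbsn). In that library Ivl had 0 UMIs in Krtdap-positive and 25 in the other barcodes, and Cst6 was at 36.2 CPM against 116.

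Cst6 and Ivl were instead high in Krtdap-positive barcodes of the other libraries. Cst6 was at 1194 CPM against 101 in Foxn1Lin female and at 2934 against 93.8 in the wild type, where 849 of 892 UMIs and most of 3184 UMIs came from the 1 barcode described above in each. Ivl was at 49.5 against 0.992 CPM and at 105 against 0.785 CPM. Lor was too low in most sums to pass the filter on low counts, with 0, 1 and 2 UMIs in Krtdap-positive and 4, 113 and 261 in Krtdap-negative barcodes. With no filter it was called lower in Krtdap-positive barcodes. Grhl3 was at 13.4, 4.76 and 13.8 CPM against 6.45, 7.41 and 9.22 (log2 fold change 0.44, SE 0.46, edgeR adjusted p = 0.946).

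The genes most like Krtdap, taken as those called higher in its positive barcodes with a higher level in all 3 libraries and at least 20 UMIs there, were 2 genes of the cornification list. Klk7 was at 135, 49.5 and 356 CPM in Krtdap-positive and 6.94, 2.05 and 7.23 CPM in Krtdap-negative barcodes (log2 fold change 4.97, SE 0.32, edgeR adjusted p = 0.0215). Cnfn was at 52.2, 36.2 and 50.7 against 3.47, 2.05 and 1.73 CPM (4.37, SE 0.31, edgeR adjusted p = 0.0215). Neither gene passed the filter on low counts by its Krtdap-negative sums alone. Their entry to the test thus rested in part on the class where they were high. In the wild type, the 1 barcode described above held 381 of 386 Klk7 UMIs and 49 of 55 Cnfn UMIs of Krtdap-positive barcodes. Without the wild-type library neither was called (edgeR adjusted p = 0.0622 for Klk7 and 0.188 for Cnfn), and with each gene capped at 5 UMIs per barcode the adjusted p were 0.128 and 0.0964. Over all alternatives Klk7 was past the threshold in 9 of 13 (log2 fold change 1.98 to 5.45) and Cnfn in 7 of 13 (1.62 to 4.96), and both were lost when barcodes were split by Krtdap after thinning or by Sbsn. The list had 55 tested genes, whose median log2 fold change was 0.95 against -0.01 over all genes. Dmkn, which lies between Krtdap and Sbsn, was not called (log2 fold change 3.28, SE 0.73, edgeR adjusted p = 0.336).

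The 3 genes called lower in Krtdap-positive barcodes were the neuroendocrine gene Chga (log2 fold change -5.58, SE 0.45) and the immunoglobulin genes Igkc (-6.08, SE 0.42) and Ighg2b (-6.92, SE 0.54). Igkc was at 9573, 4079 and 1903 CPM in Krtdap-negative and 118, 30.5 and 57.1 CPM in Krtdap-positive epithelium. These 3 were named after their values were seen. The part of plasma cell RNA in the Krtdap-negative class was not tested.

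Aire asks how the members relate to the medullary TECs that express tissue-restricted genes. Aire was found in 159, 111 and 301 epithelial barcodes, which were deeper than the others (median UMIs of 12906, 19561 and 20767 against 6851, 8994.5 and 12285). The comparisons by Krtdap, Aire and Plet1 rest on the same epithelial barcodes and are not independent of each other. Among the 8 members tested, Grhl3 was higher and Krtdap lower in Aire-positive barcodes (edgeR, Benjamini-Hochberg over 14992 genes), where 36.4% of all genes were called (19.3% higher and 17.1% lower). The members were thus called at no larger a share than genes at large.

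Grhl3 was at 10.7, 15.5 and 16.4 CPM with Aire and 5.25, 2.83 and 5.62 CPM without it (log2 fold change 1.63, SE 0.34, edgeR adjusted p = 0.0182), and these values did not overlap. Aire was found in 58.3%, 65.7% and 57.4% of Grhl3-positive barcodes and 24.7%, 17.96% and 23.9% of the others. At 2000 UMIs per barcode, Aire was in 4 of 7, 0 of 9 and 7 of 17 Grhl3-positive barcodes, against 17.0%, 12.8% and 15.6% of the others, so the higher share was not seen in Foxn1Lin male at equal depth. Krtdap was at 31.0, 15.5 and 16.4 CPM with Aire and 211, 27.1 and 49.1 CPM without it (log2 fold change -1.79, SE 0.37, edgeR adjusted p = 0.0180). By counts of barcodes, Aire was found in 27.9%, 17.5% and 37.0% of Krtdap-positive and 26.7%, 21.4% and 27.5% of Krtdap-negative barcodes, with no common direction. After thinning it was in 1 of 19, 1 of 19 and 3 of 15 Krtdap-positive barcodes, against 17.96%, 12.9% and 16.0% of the others.

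With each gene capped at 5 UMIs per barcode the Krtdap difference by Aire was not called (edgeR adjusted p = 0.149), nor when barcodes were split by Aire after thinning (0.0546). Without the wild-type library neither Krtdap (edgeR adjusted p = 0.0838) nor Grhl3 (0.101) was called. Of the 25 barcodes with at least 10 UMIs of Krtdap, 6 held Aire and 15 held Plet1.

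Asprv1 had a different relation to Aire. Aire was found in 54.2%, 70.6% and 68.3% of Asprv1-positive barcodes against 23.7%, 15.8% and 23.7% of the others, and after thinning in 31.6%, 44.4% and 24.0% (6 of 19, 8 of 18 and 6 of 25 barcodes) against 17.0%, 11.3% and 15.8%. Asprv1-positive barcodes had median depths of 13895, 20685 and 21457 UMIs against 7802, 9781 and 13148. Its summed level was not called (log2 fold change 0.14, SE 0.77, edgeR adjusted p = 0.908), with 27.3, 78.4 and 41.8 CPM with Aire and 74.9, 13.1 and 54.0 CPM without it. Cst6 likewise had Aire in 36.1%, 42.1% and 43.9% of its positive barcodes against 23.5%, 16.5% and 23.0% (after thinning, 15 of 47, 7 of 25 and 19 of 67 against 16.1%, 11.7% and 15.2%), and its log2 fold change was -0.28 (SE 0.38, edgeR adjusted p = 0.599). When each gene was capped at 5 UMIs per barcode, Asprv1 (log2 fold change 1.67), Cst6 (0.70) and Grhl3 were called higher and Sbsn (-0.83) lower with Aire, 4 of 7 members tested, where 7148 of all 15107 genes tested were called. Without the Foxn1Lin male library Cst6, Krtdap and Spink5 were called lower and Grhl3 higher.

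Sbsn, Spink5, Ly6d and Ivl were not called by Aire. Their log2 fold changes were -0.34 (SE 0.39), -0.30 (SE 1.01), 0.07 (SE 0.71) and -0.95 (SE 1.98). Lor was not tested, and its UMIs were 0, 104 and 248 in Aire-positive against 4, 10 and 15 in Aire-negative barcodes. It was called higher without the Foxn1Lin female library and without the filter on low counts. In the cornification list, 5 of 55 tested genes were higher with Aire and 12 lower, where 19.3% of all genes were higher and 17.1% lower, so without a cap the list held no larger share of higher genes than the whole (median log2 fold change -0.11 against -0.01 over all genes). With each gene capped at 5 UMIs per barcode, 15 of 55 were higher and 14 lower. Over all 15107 genes tested, 3367 were then higher and 3781 lower, so the share of higher genes was larger in the list. Those higher included S100a14 (3.46, SE 0.13), a calcium-binding protein of epithelia, the desmosomal cadherin Dsg1a (2.77, SE 0.38) and the kallikrein Klk5 (3.65, SE 1.07, past the threshold in 6 of 12 alternatives and lost, among others, without the Foxn1Lin male or the wild-type library). Those lower included the desmosomal genes Dsp (-1.28, SE 0.10) and Perp (-1.59, SE 0.12) and Trp63 (-0.91, SE 0.16), the factor of stratified epithelia.

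Plet1 marked a class with more of several members. Plet1 was found in 72, 93 and 205 epithelial barcodes (12.1%, 17.7% and 19.0%), with median UMIs of 11055, 14511 and 19585 against 8204, 8743 and 13186 without it. Of the 9 members, 4 were higher in Plet1-positive barcodes (edgeR, Benjamini-Hochberg over 15060 genes), where 6.43% of all genes were called (3.05% higher and 3.38% lower). Ivl was at 39.0, 11.6 and 22.8 CPM with Plet1 against 0.175, 0.370 and 0.669 CPM (log2 fold change 5.68, SE 0.52, edgeR adjusted p = 0.0147). Ivl passed the filter on low counts only through its Plet1-positive sums, so its call gives no support of its own. Ly6d was at 497, 299.5 and 271 against 121, 120.1 and 109.6 CPM (1.61, SE 0.17, edgeR adjusted p = 0.0152). Spink5 was at 167, 103 and 582 against 67.5, 18.5 and 77.8 CPM (2.31, SE 0.34, edgeR adjusted p = 0.0286). Sbsn was at 263, 64.5 and 95.5 against 43.9, 39.2 and 19.2 CPM (1.97, SE 0.38, edgeR adjusted p = 0.0488). For each of these 4 the Plet1-positive values lay above all Plet1-negative values, but the share of all genes with such values was not counted.

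These calls depended on the barcodes and libraries included. With the highest doublet scores left out, edgeR called 0 of 8 tested members (2 at an unadjusted p under 0.05), and without the wild-type library 0 of 8 (5 at an unadjusted p under 0.05), while on all barcodes DESeq2 called 5 of 9. The median log2 fold change over the tested members was 1.97 on all barcodes, 1.42 without the highest doublet scores and 1.75 without the wild-type library, where calls over all genes fell from 969 to 4. Without the Foxn1Lin male library Cst6, Ivl, Krtdap and Sbsn were called. When barcodes were split by Plet1 after thinning, 1 was called, Ly6d, and the log2 fold change of Ivl turned to -3.45 (edgeR adjusted p = 0.228). The Sbsn call also ended without TMM scaling (edgeR adjusted p = 0.0512), without Ptprc-positive barcodes (0.0540), with at least 2 Epcam UMIs (0.0620) and without the Foxn1Lin female library (0.127). With each gene capped at 5 UMIs per barcode the Ly6d and Spink5 calls ended, and the Spink5 call also ended without Ptprc-positive barcodes. Ivl, with 42, 23 and 119 of its UMIs in Plet1-positive barcodes, drew 36, 23 and 100 of them from the single barcodes described above, whose Plet1 counts were 2, 3 and 1.

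Krtdap was not called by Plet1 (log2 fold change 3.54, SE 0.81, edgeR adjusted p = 0.0680), at 817, 39.3 and 117 CPM against 20.8, 17.4 and 9.83. It was past the threshold in 5 of 12 alternatives (log2 fold change 0.71 to 4.50). Plet1 was found in 41.9%, 27.5% and 34.8% of Krtdap-positive barcodes against 9.80%, 16.9% and 18.3%, and after thinning in 3 of 19, 3 of 19 and 1 of 15 (15.8%, 15.8% and 6.67%) against 3.39%, 6.54% and 6.98%, so in the wild type it was no more frequent with Krtdap at equal depth. Sbsn-positive barcodes held Plet1 in 16.7%, 43.2% and 38.0% against 11.0%, 13.5% and 15.2%, and after thinning in 4 of 27, 3 of 23 and 5 of 40 against 3.25%, 6.59% and 6.74%. Asprv1-positive barcodes held it in 15.3%, 7.84% and 17.8% against 11.8%, 18.8% and 19.1%, with no common direction. Grhl3 was at 6.51, 6.56 and 8.995 CPM with Plet1 and 7.34, 7.21 and 9.63 without it (log2 fold change -0.07, SE 0.27, edgeR adjusted p = 0.961). Asprv1 (1.67, SE 0.68), Cst6 (1.97, SE 0.89) and Lor (-0.16, SE 1.56) were not called by Plet1.

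**Figure D5:**
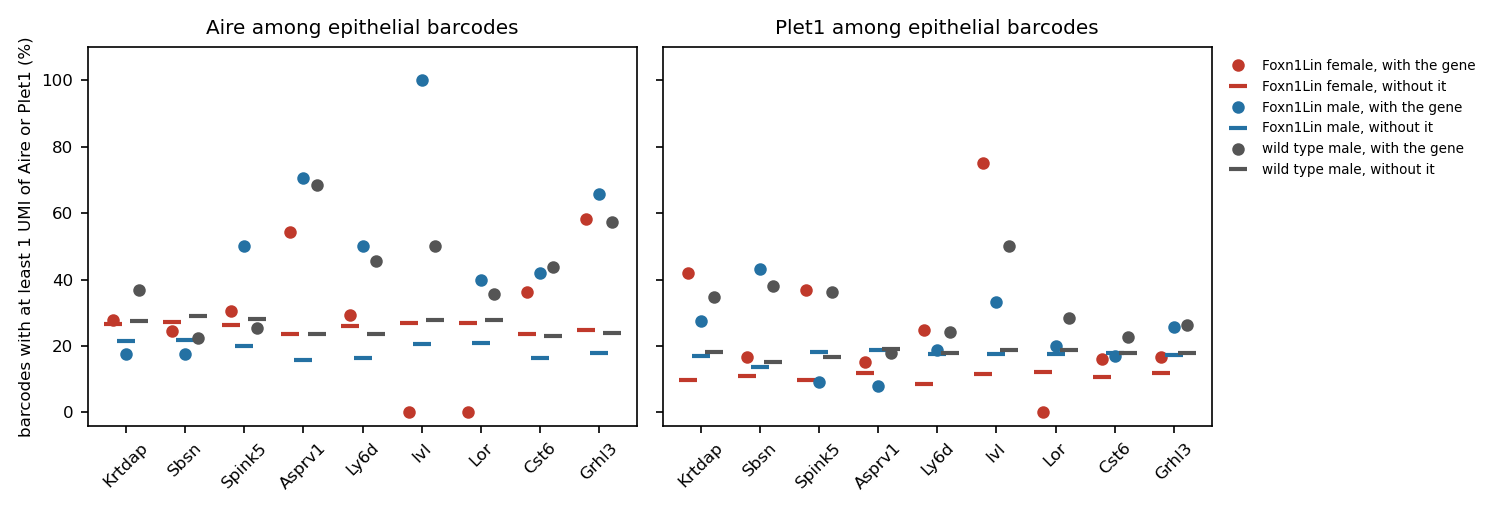
Share of epithelial barcodes with Aire (left) or Plet1 (right) (y axis, %) among barcodes with each member (circles) and without it (dashes), colored by library, at full depth. Aire is more frequent with Asprv1 (54.2%, 70.6% and 68.3%) and Grhl3 (58.3%, 65.7% and 57.4%) than without them in each library, and Plet1 is more frequent with Krtdap (41.9%, 27.5% and 34.8%). At 2000 UMIs per barcode the difference was not seen for Grhl3 with Aire in Foxn1Lin male (0 of 9) or for Krtdap with Plet1 in the wild type (1 of 15), and the points of Ivl and Lor rest on 3 to 14 barcodes.

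Plet1 itself was found in 4.40%, 3.60% and 10.3% of Aire-positive barcodes and 14.9%, 21.5% and 22.4% of Aire-negative ones. In the cornification list, 19 of 58 tested genes were higher with Plet1 and 1 lower, where 3.05% of all genes were higher and 3.38% lower, with a median log2 fold change of 1.15 against -0.02 over all genes. How many of them passed the filter on low counts only through the Plet1-positive sums was not counted. The higher genes included the keratins Krt6a (3.67, SE 0.67, past the threshold in 8 of 12 alternatives) and Krt80 (2.66, SE 0.52, in 4 of 12), the surface protein Lypd3 (3.07, SE 0.49, in 8 of 12), the calmodulin-like Calml3 (2.35, SE 0.26, in 8 of 12, with a lowest value of 0.18) and the desmosomal genes Dsp (0.87, SE 0.09) and Perp (1.16, SE 0.09). S100a14 was lower (-1.41, SE 0.20). The genes of the list called higher fell to 10 without the highest doublet scores, to 10 after thinning and to 4 without the Foxn1Lin male library. Without the wild-type library edgeR called 4 genes in all, none of them in the list, with 2083 genes at an unadjusted p under 0.05.

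The lineage reporter was read in the Foxn1Lin libraries after thinning to 2000 UMIs. Of the Krtdap-positive barcodes, 15 of 19 held it in the Foxn1Lin female library and likewise 15 of 19 in the male one (78.9% in both, 54.4 to 93.9), against 58.5% and 70.8% of Krtdap-negative epithelium and 5.44% and 4.75% of fibroblast barcodes. Sbsn-positive barcodes held it in 17 of 27 and 19 of 23, and Spink5-positive barcodes in 13 of 20 and 5 of 7. Asprv1-positive barcodes held it in 13 of 19 and 8 of 18 (68.4% and 44.4%, intervals 43.4 to 87.4 and 21.5 to 69.2), against 58.9% and 72.2% of Asprv1-negative epithelium. Aire-positive barcodes held it in 49.5% (38.8 to 60.1) and 56.7% (43.2 to 69.4), against 61.3% and 73.2% of Aire-negative epithelium, which lay outside these intervals. Plet1-positive barcodes held it in 80.0% and 81.8%, against 58.4% and 70.3% without Plet1, inside the intervals of 56.3 to 94.3 and 64.5 to 93.0. Each member's interval, where any barcode was positive, included the share of the epithelium without it, apart from Asprv1 in Foxn1Lin male. In the wild type it was found in 0 of 1004 epithelial barcodes.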

How the data were processed

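Single-cell libraries of CD45- thymic stroma (1 per group, 3 in all) were grouped by the titles in the labels. The deposited counts are whole-number UMI counts per gene and barcode, which the authors made with Cell Ranger (version 7.01 in the submitters' processing notes, with builds GRCm38.p5 and mm10) on a reference with reporter sequences added, while matrices that also hold uncalled barcodes carry a different version in their header. The sequencing saturation is a percent deposited with each library. The library protocol states a multiplet rate of 3.9%. No replicate numbers pair samples across groups.

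Called barcodes were used without further filtering. Classes were set by UMIs of Epcam, Pecam1 and Pdgfra. Doublets were scored with Scrublet (scanpy 1.11.5), whose automatic threshold marked 0, 15 and 1 barcodes, so the 336, 148 and 218 barcodes with the highest scores, up to the stated rate, were left out in 1 alternative only. Shares have 95% Clopper-Pearson intervals and CPM exact Poisson intervals (scipy 1.17.1). Ratios against 0 use a floor of 3 UMIs. Thinning to 2000 UMIs was random with a fixed seed. The epithelium held 6797600, 7395191 and 20182220 UMIs.

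For tests, UMIs were summed per library and class and fitted with edgeR 4.0.16 (R 4.3.3; quasi-likelihood test, TMM, filterByExpr, library as a block, Benjamini-Hochberg over all genes tested, threshold 0.05); with 1 library per group, p-values measure the spread of within-library differences over 3 libraries. On data simulated from these sums, 88%, 88%, 89% and 80% of genes changed by a log2 fold change of 3, and 19%, 19%, 19% and 29% of those changed by 1, were recovered in the Epcam, Krtdap, Aire and Plet1 comparisons (100 genes each). False calls there were 12, 21, 13 and 7 among 17939, 13392, 14462 and 14473 unchanged genes. Alternatives were DESeq2 1.42.0, no TMM, no filter on low counts, leaving out low-quality barcodes (1000 genes or fewer together with 20% mitochondrial UMIs or more), barcodes with Ptprc or high doublet scores, a minimum of 2 Epcam UMIs, classes set after thinning, a split by Sbsn in place of Krtdap, leaving out each library, and, added after the data were seen, a cap of 5 UMIs per gene and barcode.

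Genes were named by a rule: the 9 members, Epcam, Aire, Plet1, a list of 68 cornification genes by role, and up to 10 genes called higher in Krtdap-positive epithelium, higher in 3 libraries, with at least 20 UMIs there. Members and lists were chosen with earlier results of these data known. Motifs were searched in RefSeq promoters of GRCm38.p6, and positions are from GENCODE release 21.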

Additional observations from a re-analysis of the deposited data

Results flagged for a closer look

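Several members differed in opposite directions between libraries. The values are ratios of CPM within each library, given for the Foxn1Lin female library first, the Foxn1Lin male library next and the wild type last, and "at most" and "at least" mark a class with 0 UMIs, set to 3 UMIs. The differences between libraries were not tested, since each group had 1 library.

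In Krtdap-positive against Krtdap-negative epithelium, the ratio of Ivl was 49.9, at most 0.725 and 134, and that of Cst6 was 11.8, 0.313 and 31.3. In Foxn1Lin female and the wild type, 1 barcode rich in Krtdap held 36 of 43 and 100 of 129 Ivl UMIs, and 56.5% and 58.5% of the Cst6 UMIs.

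In Aire-positive against Aire-negative epithelium, Foxn1Lin male was above 1 and the other libraries below 1 for 6 members. The ratio of Sbsn was 0.372, 1.59 and 0.852. That of Spink5 was 0.203, 7.46 and 0.529. That of Asprv1 was 0.364, 5.97 and 0.775, and that of Ly6d 0.342, 4.42 and 0.852. Ivl was at most 0.126, at least 16.8 and 0.220, and Cst6 was at 0.505, 1.95 and 0.613. In Foxn1Lin male, 1 barcode with 94447 UMIs, 16 of them Aire, held 166 of 305 Spink5, 209 of 1244 Ly6d and 23 of 25 Ivl UMIs, and its doublet score was among the highest. Its part in these ratios was not tested.

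In Plet1-positive against Plet1-negative epithelium, the ratio of Lor was at most 3.99, 0.0242 and 4.59, on 4, 114 and 263 UMIs, so that the first gives no direction, and that of Cst6 was 10.5, 0.563 and 6.08.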

How the results depend on the processing

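Each fit compared classes within the same 3 libraries, with the library as a block, and was thus paired by library. No paired analysis was possible between the study's groups because each had 1 library. The share of epithelial barcodes with a member (55.4%, 45.1% and 53.2%) was 62.0%, 51.6% and 56.8% with at least 2 Epcam UMIs, 27.7%, 21.5% and 22.2% after thinning, 30.8%, 26.3% and 32.0% for at least 2 UMIs of a member, 49.5%, 40.6% and 47.7% without Ly6d, 26.1%, 18.1% and 26.3% for 2 members (6.15%, 4.18% and 6.18% after thinning), 10.6%, 8.38% and 11.7% for 3 and 2.36%, 0.381% and 1.95% for 5. In epithelium against barcodes without Epcam, 9 members were called, and 7 of 8 tested without Ptprc-positive barcodes (Lor lost), 8 of 8 without the highest doublet scores, 7 of 9 with a cap of 5 UMIs per gene and barcode, and 7 to 9 with a library left out. The cap, and the shares for 3 and 5 members and for 2 members after thinning, were chosen after seeing the data. All genes called there were 10147, and 6416 to 9178 with a library left out, the lowest without the wild type. By Krtdap (0 members and 5 genes called), DESeq2 called 1 member and 126 genes, Ptprc left out 2 and 15, the cap 1 and 25, no filter 3 and 168, classes after thinning 1 member, a split by Sbsn 4 and 24, and leaving out a library 0 to 4 members and 2 to 34 genes. By Aire (2 members), the cap gave 4, thinning 1 and leaving out a library 0 to 4 (1850 to 5078 genes, against 5461). By Plet1 (4 members and 969 genes), Ptprc left out gave 2 members, high doublet scores left out 0 and 484 genes, thinning 1 and 493, DESeq2 1492 genes, the cap 2278, no filter 1659, and leaving out a library 0 to 4 members and 4 to 528 genes.

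Directions reversed as follows (log2 fold change). By Krtdap, Cst6 was -0.078 with the cap and Grhl3 -0.028 in the split by Sbsn. By Aire, Asprv1 was -0.0089 without Ptprc and Ly6d was -0.0037 with no filter, -0.30 without high doublet scores, -0.077 without Ptprc and -0.046 with 2 Epcam UMIs. After thinning, Ivl was 0.34 and Cst6 0.32, and with the cap Cst6 was 0.70. With a library left out, Sbsn ranged from -0.81 to 0.17, Spink5 from -1.52 to 0.75, Asprv1 from -0.87 to 0.95, Ly6d from -0.87 to 0.91, Ivl from -3.06 to 0.61 and Cst6 from -0.85 to 0.071. By Plet1, Asprv1 was -0.15 and Cst6 -0.17 with the cap, Ivl -3.45, Cst6 -1.49 and Grhl3 0.41 after thinning, and Lor 0.50 without Ptprc and 0.23 to 1.84 with a library left out. The cause of these changes was not tested. Depth limits Ivl, Lor and Grhl3, each with under 300 UMIs in the epithelium of each library, and a log2 fold change of 1 was recovered for 19% to 29% of the genes changed in simulated data.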
